A study of Homo sapiens with 6 samples.

Results

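The guanylate-binding proteins are a family of large GTPases, and the genes described here are GBP1, GBP2, GBP3, GBP4 and GBP5. They were chosen by name, and every probe set that the platform annotation gives to exactly 1 of these symbols was taken: 11 of 54675 probe sets, for 5 of 19775 genes. THP1, an established human monocytic leukaemia cell line, was either left untreated (3 arrays) or kept on plates coated with Dll4-Fc (3 arrays), a fusion of the Notch ligand Delta-like 4 to an Fc domain. The culture time was 48 hours in both groups, in RPMI medium with serum, and 1 Affymetrix U133 Plus 2.0 array was run per sample from 5 ng of RNA. The coating is given as 30 nM in the protocol and as 60 nM on the sample labels; the control is called untreated on those labels and vehicle in the protocol, and no plate with Fc alone is among the samples. Nothing states that replicates were grown as separate cultures, so the p-values reflect how far these arrays differed from each other, and that may be technical variation.

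Guanylate-binding proteins are known as some of the most abundant proteins made by cells after exposure to interferon gamma, which signals through its receptor and Janus kinases to raise transcription factors such as IRF1. They bind and hydrolyse GTP, assemble into coats on bacteria and on the vacuoles of intracellular parasites, and in macrophages help to open these to the inflammasome and caspase-4. GBP1, GBP2 and GBP5 end in a signal for a lipid anchor, while GBP3 and GBP4 do not.

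The genes lie side by side on chromosome 1, minus strand (RefSeq, GRCh38.p14). In the order of the chromosome they are GBP3 (chr1:89006680-89022866), GBP1 (chr1:89052319-89065208), GBP2 (chr1:89106132-89126114), GBP4 (chr1:89181144-89198942) and GBP5 (chr1:89256189-89272860), a stretch of 266.2 kb that also holds GBP7. Of the 5 genes, 3 were found in the promoter table used here, which gives 250 bases before and 50 after each gene's start: GBP1, GBP3 and GBP4. These are shown because the genes belong to the same family and GBP1 rose far more than GBP3 and GBP4. The interferon-stimulated response element, searched on both strands as GAAA, any 2 bases and GAAA, was present once in each of the 3, on the opposite strand, while 3.57% of all 35116 windows of that length held it. Below it stands with 10 bases on each side, 5′ to 3′ on the gene's strand, and the capitals mark the match.
GBP1 (bases -137 to -108 from the start, chr1:89065316-89065345): aacgaagtacTTTCAGTTTCatattactct
GBP3 (bases -8 to 22, chr1:89022845-89022874): aaagaagtacTTTCAGTTTCattaggctct
GBP4 (bases -14 to 16, chr1:89198927-89198956): gtgcatgtccTTTCAATTTCggttctcaca

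The match lay at bases -127 to -118 from the annotated start in GBP1, at bases 3 to 12 after it in GBP3 and across it, from -4 to 6, in GBP4. GBP1 and GBP3 shared an unbroken run of 19 bases around it, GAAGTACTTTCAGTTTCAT. The longest run that GBP1 shared with GBP4 had 9 bases and lay elsewhere.

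A gamma-activated sequence, searched as TTCNNNGAA on both strands, was found in GBP3 at bases -15 to -7 and in neither GBP1 nor GBP4 (7.66% of all windows held it). A kappa B motif was found in GBP4 at bases -45 to -36 (11.3% of all windows). The motif of RBPJ, the DNA-binding partner of Notch, searched as GTGGGAA on both strands, was not found in these 3 windows (6.25% of all windows held it). No match overlapped another. These are matches of letters and show no binding. The 250 bases before the start follow, with capitals for those matches that lie wholly inside them: the response element in GBP1, the gamma-activated sequence in GBP3 and the kappa B motif in GBP4.
GBP1 (chr1:89065209-89065458): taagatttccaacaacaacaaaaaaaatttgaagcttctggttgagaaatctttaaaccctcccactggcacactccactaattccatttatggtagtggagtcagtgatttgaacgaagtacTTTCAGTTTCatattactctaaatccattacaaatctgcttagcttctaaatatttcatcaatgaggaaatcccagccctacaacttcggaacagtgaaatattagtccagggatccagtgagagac
GBP3 (chr1:89022867-89023116): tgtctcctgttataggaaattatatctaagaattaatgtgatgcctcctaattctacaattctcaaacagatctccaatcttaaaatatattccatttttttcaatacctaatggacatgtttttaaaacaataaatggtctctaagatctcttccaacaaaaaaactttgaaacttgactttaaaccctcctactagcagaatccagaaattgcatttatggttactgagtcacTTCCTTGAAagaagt
GBP4 (chr1:89198943-89199192): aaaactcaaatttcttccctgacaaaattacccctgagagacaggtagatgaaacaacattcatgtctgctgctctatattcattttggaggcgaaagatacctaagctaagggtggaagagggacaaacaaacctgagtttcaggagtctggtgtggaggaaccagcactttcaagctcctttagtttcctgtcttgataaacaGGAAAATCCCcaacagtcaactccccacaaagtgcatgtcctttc

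All 5 genes were higher in cells on Dll4-Fc, but by unequal amounts. GBP1 rose 40.4-fold and GBP2 rose 8.56-fold, while GBP3, GBP4 and GBP5 rose 1.54-fold, 1.48-fold and 1.39-fold. Each fold is from the gene's probe set with the highest mean over all 6 arrays. For GBP1 this choice rested on the Dll4-Fc arrays and took the largest difference of its 4 probe sets. On 202270_at, another of them, GBP1 rose 22.9-fold. The values are log2 signals from RMA, the differences are Dll4-Fc minus untreated with the standard error from limma, and a gene was called where its p-value, adjusted by the Benjamini-Hochberg method over the whole table, was under 0.05. Of the 11 probe sets, 10 were called higher and 0 lower; 7.21% of all 54613 probe sets tested were called higher and 9.26% lower. With 1 probe set a gene, the one with the highest mean, all 5 genes were called higher, against 11.6% of all genes higher and 15% lower. In the same 10 probe sets, and so in all 5 genes, every Dll4-Fc array lay above every untreated array, which held for 14.1% of all probe sets and 18.2% of all genes.

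**Figure D1:**
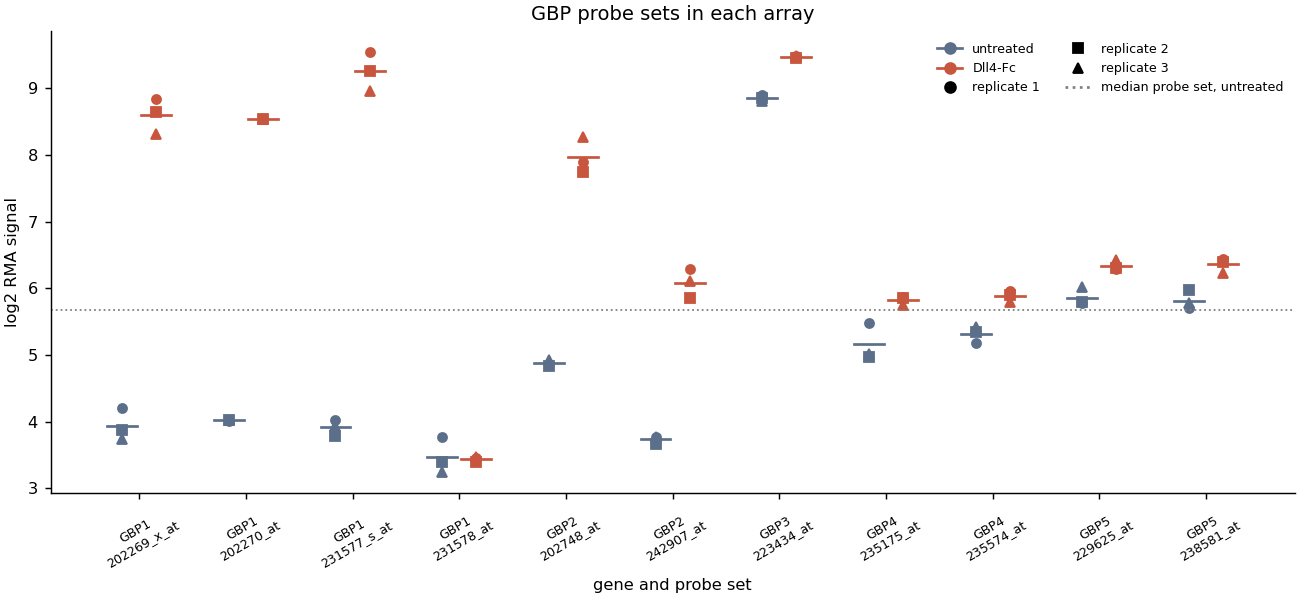
Log2 RMA signal of the 11 GBP probe sets in each array: points are arrays (marker shape gives the replicate number), short lines are group means, and the dotted line is the median untreated signal of all probe sets, 5.68. In 10 probe sets the Dll4-Fc arrays lie above all untreated arrays; in 231578_at of GBP1 the groups overlap.

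GBP1, which coats cytosolic bacteria and recruits its relatives, was measured by 4 probe sets. The brightest over all 6 arrays, though not in untreated cells, was 231577_s_at. Its log2 signals were 4.03, 3.79 and 3.94 in the untreated arrays and 9.54, 9.26 and 8.96 in the Dll4-Fc arrays. The groups were 4.94 apart at their nearest points, and within the Dll4-Fc group replicate 3 was lowest. The difference was 5.34 ± 0.14 (95% interval 5.01 to 5.66, n = 3 per group, limma adjusted p = 2.35e-07).

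On 202269_x_at, GBP1 gave 4.20, 3.87 and 3.74 untreated and 8.84, 8.65 and 8.32 with Dll4-Fc, a difference of 4.66 ± 0.16. The endings of these names, _s_at and _x_at, mark probe sets that can read more than 1 transcript, which matters in a family of similar genes. The remaining pair of probe sets does not carry them. On 202270_at the GBP1 signals were 4.02, 4.03 and 4.03 untreated and 8.55, 8.54 and 8.54 with Dll4-Fc. That is a difference of 4.51 ± 0.06, or 22.9-fold (95% interval 20.8 to 25.1, limma adjusted p = 2.02e-08), so the rise of GBP1 was also seen without shared probe sets.

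On 231578_at the GBP1 signals were 3.77, 3.40 and 3.25 untreated and 3.46, 3.40 and 3.47 with Dll4-Fc. The groups overlapped and the difference was -0.03 ± 0.13 (95% interval -0.32 to 0.26, limma adjusted p = 0.928). This probe set was designed from the same sequence record as 231577_s_at and was the dimmest of the 11. It lay at percentile 9.28 of all probe sets in untreated cells and at percentile 8.85 with Dll4-Fc. With its 4 probe sets averaged GBP1 rose by 3.62.

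Untreated GBP1 was itself dim. The 3 probe sets that rose lay between percentiles 18.9 and 21.0 of all probe sets in untreated cells, below the median signal of 5.68, and between percentiles 80.4 and 85.6 with Dll4-Fc. On the linear scale, 231577_s_at read 13.9 to 16.3 units untreated and 499 to 745 units with Dll4-Fc. A fold change from so low a signal is uncertain in size, since it depends on the background that RMA removed.

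GBP2, which carries a lipid anchor and joins GBP1 on bacterial surfaces, was measured by 2 probe sets. On 202748_at the log2 signals were 4.87, 4.83 and 4.93 in untreated cells and 7.90, 7.75 and 8.28 with Dll4-Fc. The groups were 2.82 apart, and replicate 3 was the highest Dll4-Fc array here, whereas it was the lowest for GBP1 on 231577_s_at. The difference was 3.10 ± 0.13, or 8.56-fold (95% interval 6.97 to 10.5, limma adjusted p = 2.7e-06).

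On 242907_at, GBP2 gave 3.77, 3.67 and 3.78 untreated and 6.29, 5.86 and 6.10 with Dll4-Fc, a difference of 2.34 ± 0.11 (limma adjusted p = 5.58e-06). Both probe sets thus rose without overlap between the groups. Both were below the median signal in untreated cells, at percentiles 36.6 and 15.2.

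GBP3, which is closely related to GBP1 but ends without the lipid anchor signal, was the only member with a high signal in untreated cells. Its single probe set, 223434_at, gave log2 signals of 8.90, 8.85 and 8.81 untreated and 9.48, 9.46 and 9.49 with Dll4-Fc. It lay at percentile 82.9 of all probe sets in untreated cells and at percentile 87.1 with Dll4-Fc. The arrays of each group lay close together and the groups were 0.56 apart. The difference of 0.62 ± 0.06 (95% interval 0.48 to 0.77, limma adjusted p = 0.000352) is 1.54-fold.

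GBP4, a member without a lipid anchor that has been described as a restraint on IRF7, was measured by 2 probe sets. On 235574_at the log2 signals were 5.18, 5.34 and 5.42 untreated and 5.96, 5.90 and 5.80 with Dll4-Fc, a difference of 0.57 ± 0.08 (limma adjusted p = 0.00277). On 235175_at they were 5.49, 4.98 and 5.02 untreated and 5.87, 5.85 and 5.76 with Dll4-Fc, a difference of 0.66 ± 0.13 (limma adjusted p = 0.0117). Here untreated replicate 1 stood 0.47 above the next untreated array, and the groups were still 0.27 apart. Without Dll4-Fc replicate 1 the adjusted p of 235175_at was 0.0492.

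GBP5, a lipid-anchored member reported to promote assembly of the NLRP3 inflammasome in macrophages, was also measured by 2 probe sets. On 229625_at the log2 signals were 5.78, 5.79 and 6.02 untreated and 6.29, 6.30 and 6.43 with Dll4-Fc. On 238581_at they were 5.70, 5.97 and 5.78 untreated and 6.45, 6.40 and 6.23 with Dll4-Fc. In each the groups were separated, by 0.27 and 0.26. The differences were 0.48 ± 0.09 (limma adjusted p = 0.00772) and 0.54 ± 0.09 (limma adjusted p = 0.00589).

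**Figure D2:**
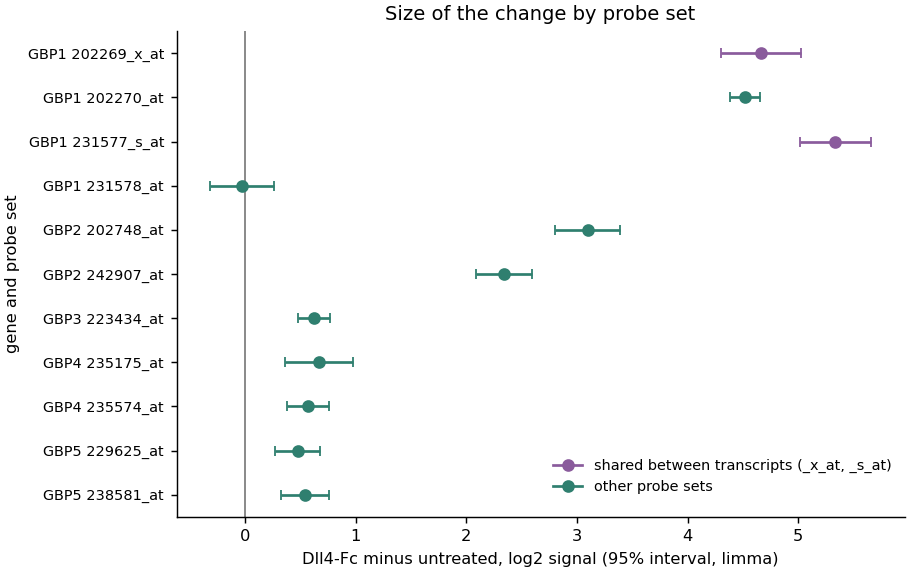
Difference in log2 signal, Dll4-Fc minus untreated, for each GBP probe set, with its 95% interval from limma (n = 3 arrays per group); colour marks probe sets shared between transcripts. GBP1 (3 of 4 probe sets) and GBP2 lie between 2.34 and 5.34, and GBP3, GBP4 and GBP5 lie between 0.48 and 0.66.

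The members thus fell into those that rose by 3.10 or more and those that rose by 0.62 or less on the log2 scale, taking the gene-level values. Being at least 2-fold higher and called, as GBP1 and GBP2 were, applied to 2.6% of all genes. Whether members rose by different amounts was tested on the difference between their log2 signals within each array, for the 10 pairs. For these pairs the ± is a standard error from the variances of the 2 groups of 3 arrays, not from limma. GBP1 rose more than GBP2 by 2.24 ± 0.31, and by 4.71 ± 0.18, 4.77 ± 0.17 and 4.86 ± 0.23 more than GBP3, GBP4 and GBP5. GBP2 rose by 2.47 ± 0.16, 2.53 ± 0.21 and 2.62 ± 0.13 more than those 3.

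In each of these 7 pairs the arrays of the groups did not overlap and the exact permutation p was 0.1 (0.143 adjusted over the 10 pairs), which is the smallest that 3 arrays against 3 can give, so no pair could pass 0.05. The margin of GBP1 over GBP2 depended on the probe sets: it was 1.42 without shared probe sets and 0.90 when the probe sets of each gene were averaged. GBP3, GBP4 and GBP5 differed from each other by 0.06 ± 0.11, 0.15 ± 0.11 and 0.09 ± 0.10, with exact permutation p-values of 0.7, 0.3 and 0.4 (0.7, 0.375 and 0.444 adjusted over the 10 pairs) and overlapping groups. A p-value of that size does not show that these 3 rose equally. Probe sets differ in how fully they report a change, which was not tested here.

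In untreated cells the probe-set signals descended from GBP3 (8.85 ± 0.04, SD, n = 3) through GBP5 (5.86 ± 0.14), GBP4 (5.32 ± 0.12) and GBP2 (4.88 ± 0.05) to GBP1 (3.92 ± 0.12). With Dll4-Fc they were 9.48 ± 0.01 for GBP3, 9.26 ± 0.29 for GBP1, 7.97 ± 0.27 for GBP2, 6.34 ± 0.08 for GBP5 and 5.89 ± 0.08 for GBP4. Signals of different probe sets are not on a common scale of RNA abundance, so this is an order of signals. With Dll4-Fc, GBP1 and GBP3 were neighbours whose arrays overlapped: 8.96 to 9.54 for GBP1 and 9.46 to 9.49 for GBP3.

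As a check of the samples, arrays of 1 group correlated across genes at 0.997 to 0.999 and arrays of different groups at 0.981 to 0.985. The 3′ minus 5′ log2 signal, a sign of RNA quality, was 0.72 and 0.67 for ACTB (exact permutation p = 0.2) and 0.38 and 0.39 for GAPDH (p = 0.9 by the same exact test) in untreated and Dll4-Fc arrays. Of 7 measured myeloid markers, 6 were above the median gene in untreated cells, and with Dll4-Fc 6 rose and MPO fell. The log2 of their summed intensities moved from between 13.54 and 13.56 to between 14.98 and 15.08. In such a sum the brightest genes weigh most. T and NK cells are known as producers of interferon gamma. The log2 of the summed intensities of their 6 markers was 8.07 to 8.27 untreated and 8.17 to 8.23 with Dll4-Fc. Of 15 measured markers of T or NK, B, erythroid, endothelial and fibroblast cells, 2 were above the median gene in untreated cells and 0 were called by limma (1 had an unadjusted p under 0.05). The same measure, untreated first, was 6.39 to 6.69 and 6.26 to 6.61 for B cells. For erythroid cells it was 7.18 to 7.24 and 6.90 to 7.13. It was 5.73 to 5.89 and 5.63 to 5.97 for endothelial cells, and 8.01 to 8.21 and 8.14 to 8.27 for fibroblasts. The part of the myeloid shift in the GBP values was not tested, and in bulk RNA more responding cells and more RNA per cell cannot be told apart.

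Of the 9 neighbours on chromosome 1, all measured, 1 was higher (11.1%, against 11.6% of all genes), 4 were lower (44.4%, against 15%) and 4 did not pass, with a median difference of -0.12 on the log2 scale against -0.01 for all genes. On the side of GBP3, KYAT3, a transaminase gene, was higher by 0.28 ± 0.06 (limma adjusted p = 0.0082) and PKN2, which encodes a protein kinase, fell by 0.45 ± 0.06. LMO4, a LIM-domain transcription cofactor gene further out, fell by 0.38 ± 0.05, and gave -0.57 with the mean of its probe sets and -0.74 without shared ones. On the side of GBP5, LRRC8C, a subunit of volume-regulated anion channels, fell by 0.28 ± 0.06, a call that was lost with the mean of its probe sets (limma adjusted p = 0.0606). The other that fell was RBMXL1, which lies inside KYAT3 (-0.25). GBP6, the family member next to GBP5, gave 3.43 ± 0.08 untreated and 3.56 ± 0.04 with Dll4-Fc (SD, n = 3), a difference of 0.13 ± 0.06 that did not pass (limma adjusted p = 0.183). It turned to -0.05 without shared probe sets, and both its levels were very low. GBP7 was not analysed here.

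**Figure D3:**
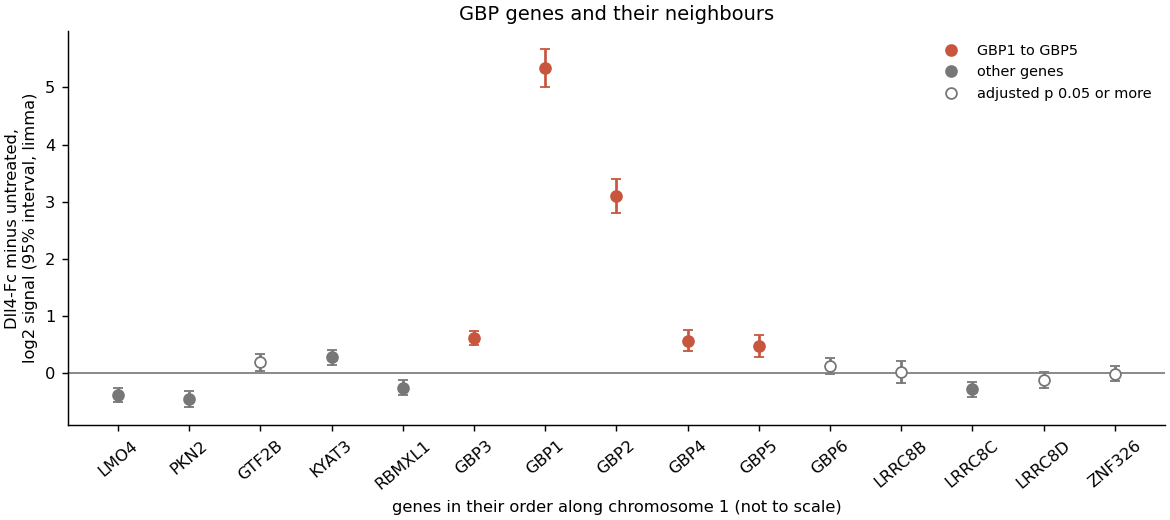
Difference in log2 signal, Dll4-Fc minus untreated, with its 95% interval from limma, for GBP1 to GBP5 and their neighbours in the order of chromosome 1 (1 probe set a gene, n = 3 arrays per group); open points did not pass. GBP1 at 5.34 and GBP2 at 3.10 stand next to each other, between GBP3 at 0.62 and GBP4 at 0.57, and the neighbours outside the cluster lie between -0.45 and 0.28.

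The lists of related genes were chosen by what the genes do, with earlier results of these data known. Among 18 measured GTPase relatives (dynamins, mitofusins, atlastins, EHD proteins and others), 3 were higher and 3 lower (16.7% each way, near the 11.6% and 15% of all genes), with a median difference of 0.02. The antiviral MX1 rose 46.3-fold (5.53 ± 0.10, limma adjusted p = 1.33e-07) and MX2, its relative that acts against retroviruses, 4.33-fold (2.11 ± 0.11). EHD4, which shapes endosomes, rose by 0.79 ± 0.06, and by 1.24 without shared probe sets. DNM1, a dynamin of endocytosis, was lower by 0.46 ± 0.11 on the log2 scale (difference -0.46), but 0.00 without shared probe sets, and its call was lost without Dll4-Fc replicate 1 (limma adjusted p = 0.0601) and with the mean of its probe sets (0.149). The others that fell were ATL3 (-0.28) and EHD1 (-0.43).

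Of 21 measured genes of interferon signalling, 13 were higher and 1 lower (61.9% and 4.76%, against 11.6% and 15% of all genes). Their median was 0.31. The ligand gene IFNG stayed dim, at 4.10 ± 0.18 untreated and 4.14 ± 0.19 with Dll4-Fc (SD, n = 3), a difference of 0.04 ± 0.12 (limma adjusted p = 0.875). The genes of its receptor were higher: IFNGR1, the ligand-binding chain, rose 2.99-fold (1.58 ± 0.06) and IFNGR2, the signalling chain, 1.48-fold (0.57 ± 0.06, limma adjusted p = 0.000423). Those of the type I interferon receptor, IFNAR1 and IFNAR2, were also higher (0.31 ± 0.08 and 0.47 ± 0.06, limma adjusted p = 0.024 and 0.00115). IFNB1, a type I interferon gene, differed by 0.18 ± 0.11 without passing (limma adjusted p = 0.283). These 3 genes were singled out after their values were seen. The largest rises of the list were those of USP18, a brake on the type I interferon receptor (3.29 ± 0.13, 9.75-fold), and IRF7, a driver of type I interferon genes (2.65 ± 0.09, 6.28-fold). IRF9, the DNA-binding part of the complex that type I interferon forms, rose by 1.74 ± 0.07.

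IRF1, the factor most tied to GBP transcription, was higher by 0.34 ± 0.09 (limma adjusted p = 0.028) on its brighter probe set and by 0.53 ± 0.09 on the other (limma adjusted p = 0.00564), and the mean of both gave 0.43 (limma adjusted p = 0.00617). On the brighter one the call was lost without untreated replicate 2 or 3 or without Dll4-Fc replicate 1 or 2 (limma adjusted p from 0.0614 to 0.0959). IRF8, a myeloid factor that works with IRF1, was near the top of all signals in both groups (13.44 and 13.28) and differed by -0.16 ± 0.06 without passing (limma adjusted p = 0.08). It passed as lower without dim genes, with a trended robust prior, with array weights and with 16 added before the logarithm (limma adjusted p from 0.00147 to 0.0422). SOCS1, a feedback inhibitor of Janus kinases, differed by 0.26 ± 0.10 (limma adjusted p = 0.104), and passed with array weights (0.0401) and with the replicate number as a block (0.0468). With the mean of its 4 probe sets, which went in both directions (-0.15 to 0.26), it gave 0.03 (limma adjusted p = 0.804). The 1 gene that fell was PIAS1, an inhibitor of cytokine signalling (-0.40 ± 0.06, limma adjusted p = 0.00186). STAT2 was not analysed here.

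Of 20 further target genes of interferon gamma, all measured, 13 were higher and 1 lower, with a median of 0.49. That is 65% and 5%, against 11.6% and 15% of all genes. The median stood at 0.60 to 0.63 when any of the untreated arrays was left out. Probe sets were then picked again, so the median can move through a switch of probe set, for example in ICAM1. ICAM1 did not pass on the probe set used (0.10, limma adjusted p = 0.167), but 2 of its 3 probe sets were called higher. Another ICAM1 probe set, which rose by 1.04, was dimmer untreated (5.88 against 6.36) and brighter with Dll4-Fc (6.92 against 6.46). The chemokine gene CXCL10 rose 15.7-fold, from 4.67 ± 0.12 to 8.65 ± 0.37 (SD, n = 3), and CXCL11, a ligand of the same receptor, 2.74-fold (1.45 ± 0.24), but by 0.44 without shared probe sets and 0.95 with the mean of its probe sets. WARS1, a tRNA synthetase, also rose 2.74-fold (1.45 ± 0.07) and HLA-DRA, an MHC class II chain, 2.16-fold (1.11 ± 0.06, limma adjusted p = 2.44e-05). The 1 that fell was PSMB10, an immunoproteasome subunit (-0.21 ± 0.05, limma adjusted p = 0.0219 over genes). Its probe set did not pass in the fit of all probe sets (limma adjusted p = 0.0546). Of the 6 that did not pass, 2 were the enzyme gene IDO1 (-0.11) and CIITA (0.03), the switch for MHC class II genes; they were singled out after their values were seen.

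Of 24 genes whose products act with guanylate-binding proteins in host defence, 15 were higher and 2 lower, with a median of 0.39. That is 62.5% and 8.33%, against 11.6% and 15% of all genes. Without shared probe sets 9 of 18 were higher. UBE2L6, the conjugating enzyme for ISG15, rose 7.37-fold (2.88 ± 0.11) and NLRC4, an inflammasome protein, 6.67-fold (2.74 ± 0.19). The mean of its probe sets gave 1.60 for NLRC4, since the other one, 0.46 higher, did not pass (limma adjusted p = 0.0532). LGALS3, a galectin that marks broken vacuoles, rose 3.84-fold (1.94 ± 0.07). Without shared probe sets it gave 0.01 (limma adjusted p = 0.981), on a probe set that was very dim in both groups (3.57 in each). RNF213, a ubiquitin ligase that coats bacteria, rose 2.68-fold (1.42 ± 0.09), and by 0.90 with the mean of its probe sets or 0.86 without shared ones. The 2 that fell were NLRP3, the inflammasome sensor (-0.24 ± 0.05, limma adjusted p = 0.0103), and PYCARD, its adaptor (-0.28 ± 0.06, limma adjusted p = 0.0114). Only 1 of the 3 NLRP3 probe sets was called lower. The others gave -0.18 and -0.06 (limma adjusted p = 0.328 and 0.78). Of 6 measured enzymes that attach and trim the lipid anchor, 1 was higher and 0 lower by limma (0 lower at an unadjusted p under 0.05), with a median of 0.04; 1 of 6 is near the 11.6% of all genes called higher. The higher one was ZMPSTE24, a protease (0.17 ± 0.05, limma adjusted p = 0.0405), whose call was lost without any of the 6 arrays (adjusted p from 0.0682 to 0.123).

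**Figure D4:**
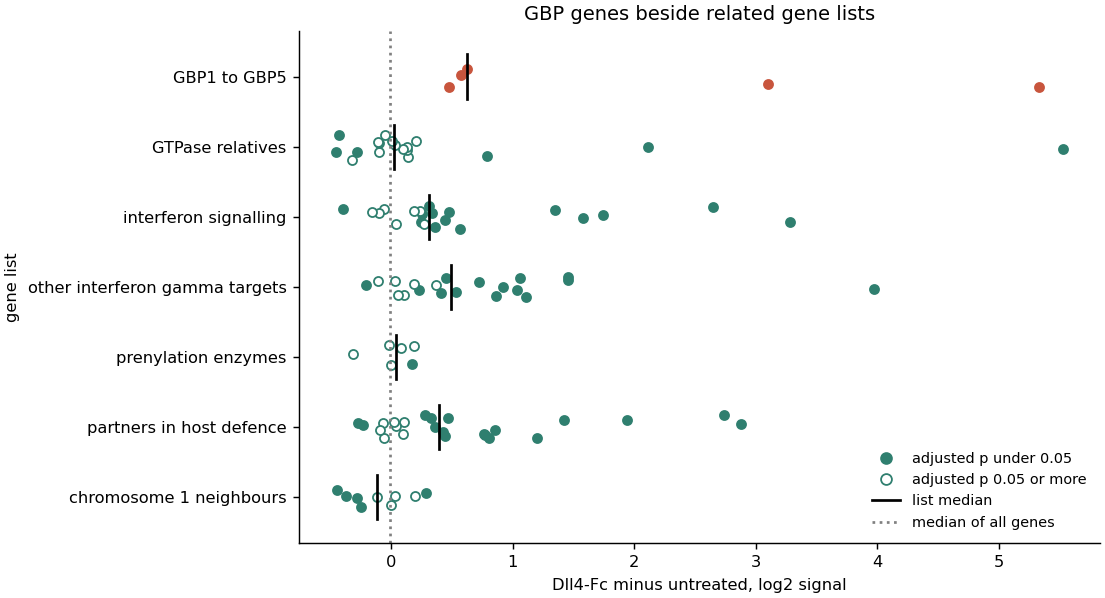
Difference in log2 signal, Dll4-Fc minus untreated, for GBP1 to GBP5 and for each gene of the 6 related lists (1 probe set a gene; filled points passed limma's test, vertical bars are list medians, the dotted line is the median of all genes, -0.01; points are spread vertically at random). The medians run from -0.12 for the chromosome 1 neighbours to 0.49 for the other interferon gamma targets, and 0.62 for the 5 GBP genes.

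The genes most like each member were taken as the 3 with the smallest root mean square distance between log2 signals over the 6 arrays, each gene centred on its own mean. Nearest to GBP1 were 3 interferon-stimulated genes: EPSTI1 (distance 0.12), MX1 (0.16) and IFI27 (0.19), with rises of 5.21, 5.53 and 5.47. Nearest to GBP2 were ENTPD1, which breaks down extracellular ATP (0.14), APOE, a lipid carrier (0.16), and PAQR5, a membrane receptor (0.18), with rises of 3.22, 3.06 and 3.13. The rise of APOE was 1.64 to 1.70 when any of the 3 Dll4-Fc arrays was left out. This was a switch to another APOE probe set, since the one with the highest mean was picked again from the arrays left. For GBP3 they were STX3, IER5 and CPM, at 0.02 to 0.03. For GBP4 they were TSPOAP1 (0.04), ANKDD1A (0.05) and SP140L (0.06; its rise of 0.62 was 0.25 with the mean of its probe sets), and for GBP5 TOM1 (0.03), NLRC5 (0.05), a switch for MHC class I genes, and RELL2 (0.05). With 2 groups of 3 arrays this distance follows mainly the size of the rise. GBP1 and GBP2 were 1.16 apart, and GBP3, GBP4 and GBP5 were 0.11 to 0.13 apart.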

How the data were processed

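Expression was measured in 6 THP1 samples on Affymetrix arrays. The authors deposited an intensity for each probe set (linear scale) made with RMA, per the submitters' processing notes; no version is given there. RMA as usually run corrects background, applies quantile normalization and sums probes up. Values ran from 5.87 to 28188. RMA shrinks differences of dim probe sets, and the number of arrays limits the precision (median standard error of a gene's difference 0.08 on the log2 scale). Here the deposited values were log2 transformed. The 62 hybridization controls were left out, and 54613 probe sets, or 19775 genes (the single-symbol probe set with the highest mean), were fitted with limma 3.58.1 in R 4.3.3 (lmFit, eBayes, 2-sided, 4 residual degrees of freedom), with Benjamini-Hochberg adjustment over all of them. The fit was tested on simulated data. A current gene record was found for 41043 of the 41097 single-symbol probe sets.

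The members and lists were chosen with earlier results of these data known. Named beside the members are up to 4 called genes per list with the largest difference, 9 genes fixed by name (not all of them are reported here), and 3 nearest genes per member. Other genes that fell in a list were named after their values were seen. Promoters are from RefSeq (GRCh38.p14). Alternatives were a replicate block, the mean of a gene's probe sets, no shared probe sets, no dim features, cyclic loess, median centring, a trended robust prior, array weights, 16 added before log2, and leaving out each array. Where arrays or probe sets were left out, the probe set of a gene was picked again, so its value can move through a switch of probe set.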

Additional observations from a re-analysis of the deposited data

How the results depend on the processing

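In every alternative in which they were tested, GBP1 to GBP5 and the 10 probe sets called higher kept their direction and their call. Fewer were counted where fewer were tested: without dim features 1 of 1 GBP gene and 7 of 7 probe sets, and without shared probe sets 8 of 9 probe sets. The dim filter used the mean over all 6 arrays, and it removed 231578_at, which did not rise. The GBP1 and GBP2 probe sets it kept were below the median in untreated cells, so they passed through their Dll4-Fc signal. The 7 of 7 is therefore no separate sign that the calls held. The log2 rise ranged from 3.62 to 5.49 for GBP1, 2.56 to 3.21 for GBP2, 0.60 to 0.69 for GBP3, 0.43 to 0.62 for GBP4 and 0.39 to 0.60 for GBP5. Signals near background, as for untreated GBP1, limit how well a fold is known.

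The replicate numbers did not pair the samples (correlations of deviations 0.01, -0.21 and -0.15). With the replicate number as a block, 5 GBP genes, 10 GBP probe sets, the counts of all genes higher and of all genes lower were 1829 and 2066, with 0 other interferon gamma targets lower, 0 prenylation enzymes higher and 1 lower, and 1 host-defence partner lower.

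Without dim features, 2 of 17 interferon signalling genes were lower. Called higher were 8 of 10 other targets, 2 of 5 prenylation enzymes and 2 of 9 chromosome 1 neighbours (22.2%). Of all 9888 genes kept, 21.6% were then higher and 32.5% lower, so these counts are not comparable with those of the main fit. Some list genes below the median in untreated cells, such as HLA-DRA (percentile 47.3), passed this filter through their Dll4-Fc signal. Without shared probe sets, 0 prenylation enzymes and 9 of 18 host-defence partners were higher, DNM1 gave 0.0032 and GBP6 gave -0.047. With the mean of probe sets, 1 host-defence partner was lower. With cyclic loess, 2 prenylation enzymes and 2 neighbours were higher, and the counts of all genes higher and of all genes lower were 2860 and 2465, against 2298 and 2964. With median centring, 0 prenylation enzymes were higher. With a trended robust prior and with 16 added before log2, 2 interferon signalling genes were lower, and 2 prenylation enzymes and 2 neighbours were higher. With array weights, 2 interferon signalling genes were lower, 2 neighbours were higher and IFNG gave -0.053. The cause of these shifts was not tested.

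Leaving out 1 array at a time gave 1854 (without Dll4-Fc replicate 1) to 3187 for the count of all genes lower (1960 without untreated replicate 2), 0 to 1 other targets lower, 0 prenylation enzymes higher, 1 to 3 GTPase relatives lower and 1 to 2 host-defence partners lower. The difference of GBP1 probe set 231578_at ran from -0.14 to 0.12, that of IFNG from -0.067 to 0.13, and the difference between members: GBP3 minus GBP4, from -0.018 to 0.14.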

Other observations

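The 3 arrays of each group gave almost the same signal on 202270_at of GBP1: its pooled within-group SD was 0.0063, and 0.0128% of all probe sets had a smaller one, against a median of 0.11. The GBP1 probe sets 202269_x_at and 231577_s_at had SDs of 0.25 and 0.22 in the same arrays. The pseudogene GBP1P1, singled out after its values were seen, gave 4.68, 4.69 and 4.79 untreated and 4.91, 4.96 and 4.77 with Dll4-Fc on its probe set, a difference of 0.16 ± 0.08 with overlapping groups (limma adjusted p = 0.214).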
